A study of Solea senegalensis with 30 samples.

Results

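MiR-22 was examined in the blood plasma of Senegalese sole, as every entry of the count data whose miRNA name carries the number 22, with any letter or arm. This gave 3 names of 172, namely miR-22a, miR-22b and miR-22-3p, and 53 of the 2129 isomiRs, the sequence variants of a miRNA that were counted separately. MiR-22a was chosen by its high and steady level in these same libraries, so its level and spread between fish are given as a description with no test. The study asked how the peptide kisspeptin, an upstream activator of the reproductive axis, changes circulating miRNAs in Senegalese sole broodstock hatched in captivity (G1). The 30 libraries of small RNA came from 30 fish that received 1 intramuscular injection, either the KISS2 decapeptide at 250 µg/kg body weight (kisspeptin fish) or phosphate buffered saline (control fish, called untreated in the labels). At 2 d after the injection there were 5 control females, 5 kisspeptin females, 4 control males and 6 kisspeptin males, and at 4 d there were 5 control males and 5 kisspeptin males. Each treatment had its own tanks and each day was sampled from other tanks, so that neither treatment nor day can be told apart from tank.

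MiRNAs are short RNAs that guide a silencing complex to messenger RNAs, mainly through the seed, which spans bases 2 to 8 from the 5′ end. MiR-22 is a conserved vertebrate miRNA made in many tissues, and in mammals it is known for its roles in heart muscle and in blood cell formation. Cells release miRNAs into plasma in vesicles and in protein complexes, and plasma values do not tell how many cells released a miRNA from how much each cell released. IsomiRs of 1 miRNA arise where the precursor is cut at neighbouring positions or where the ends are trimmed or extended. A shift of the 3′ end keeps the seed, while a shift of the 5′ start replaces it.

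The 53 isomiRs held 326602 of 2390862 counts, or 13.7% of all miRNA counts in the data analysed here. The 5 isomiRs with at least 1% of the miR-22 counts are shown because together they held 96.7% of them, with the seed in capitals. All 5 belong to miR-22a, and the first is called the main isomiR.

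miR-22a, main isomiR, 22 nt: aAGCTGCCagctgaagaactgt
miR-22a, 3′ end 1 base shorter, 21 nt: aAGCTGCCagctgaagaactg
miR-22a, 5′ start 1 base later, 21 nt: aGCTGCCAgctgaagaactgt
miR-22a, 5′ start 2 bases later, 20 nt: gCTGCCAGctgaagaactgt
miR-22a, 3′ end 2 bases shorter, 20 nt: aAGCTGCCagctgaagaact

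The main isomiR had 253022 counts, 77.5% of all miR-22 counts, and the form 1 base shorter at the 3′ end had 42809 counts (13.1%). The forms starting 1 and 2 bases later had 8746 (2.68%) and 6363 counts (1.95%), and the form 2 bases shorter at the 3′ end had 4808 counts (1.47%). These 5 were counted in all 30 libraries, as were 3 further isomiRs of miR-22a. They were the form 1 base longer at the 3′ end, by a T (2437 counts), the form starting 3 bases later (1451 counts) and the form 1 base shorter at both ends (1365 counts). At the other extreme, 13 of the 53 isomiRs were counted in a single library.

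The other 2 names were rare and are shown by their most counted isomiRs, with the bases that differ from the main isomiR of miR-22a in capitals.

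miR-22-3p, 19 nt: aagctgccagTtgaagaac
miR-22b, 22 nt: aagctgccagTtgaagaGctgt

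Counting from 1 at the 5′ end of the main isomiR, miR-22-3p differed from it by C11T, and miR-22b by C11T and A18G. Both differences lie outside the seed, so the main forms of all 3 names shared the seed AGCTGCC. In the deposited counts, none of the 41 isomiRs of miR-22a carried a base that differed from the main isomiR within the stretch they shared. The part of read mapping, naming and filtering in this was not tested, so it is not given as a property of miR-22a. Reads were named through hairpins of many species, so the name given to each form need not be that of a gene of the sole, and the positions of the miR-22 genes in the sole genome are not given here.

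The 3′ end varied more than the 5′ start. Counts with the 3′ end of the main isomiR made up 82.9%, and those ending 1 base earlier 14.3%. Counts with the 5′ start of the main isomiR, and with them the seed AGCTGCC, made up 93.2%. Starts 1 base later gave the seed GCTGCCA in 3.18% of the counts, starts 2 bases later gave CTGCCAG in 2.37%, and starts 1 base earlier gave AAGCTGC in 0.393%. By length, 77.7% of the counts were 22 nt and 15.8% were 21 nt.

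**Figure D1:**
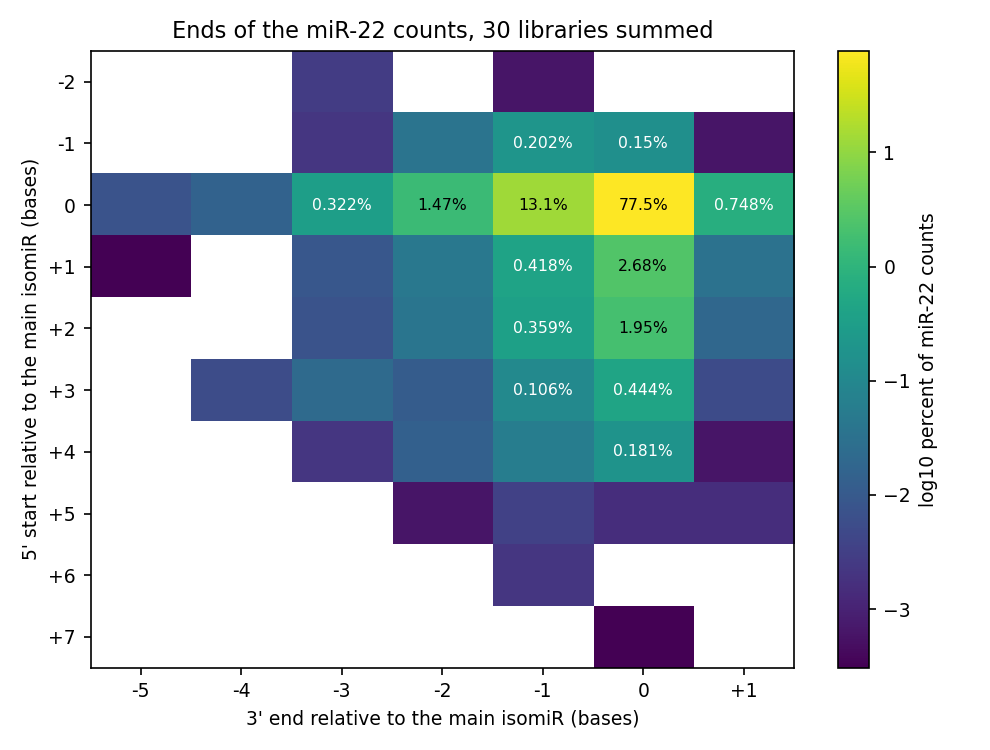
Position of the 5′ start (vertical axis, bases) and of the 3′ end (horizontal axis, bases) of miR-22 counts relative to the main isomiR, summed over 30 libraries, with colour giving the log10 percent of miR-22 counts and white cells holding no counts. The counts lie along the row of the main 5′ start and the column of the main 3′ end, with 77.5% at their crossing.

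MiR-22a was abundant in every fish. It held 326108 counts, between 3244 and 33411 per library with a median of 9809, in libraries of 25468 to 191846 miRNA counts. Its share of a library ranged from 5.67% to 22.3%. On the scale of log2 cpm (counts relative to the library total, scaled by TMM with a prior count of 1) its level was 17.05 ± 0.45 (SD, n = 30), from 15.98 to 18.15, a 4.51-fold range in cpm. The counting error of this level was at most 0.025 on the log2 scale, and does not account for library preparation.

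In control females at 2 d the share of the library in miR-22a was 9.33%, 13.4%, 17.1%, 17.4% and 21.9%, and in kisspeptin females it was 9.46%, 13.1%, 14.6%, 15.1% and 16.9%. In control males at 2 d it was 13.3%, 13.8%, 16.7% and 22.3%, and in kisspeptin males it was 5.67%, 7.30%, 10.2%, 14.4%, 15.7% and 18.5%. At 4 d it was 9.26%, 12.9%, 15.9%, 17.1% and 17.6% in control males, and 9.99%, 11.9%, 11.9%, 12.4% and 20.1% in kisspeptin males. The kisspeptin and control fish overlapped in all 3 pairs of groups. The 2 lowest shares of all were in kisspeptin males at 2 d, and the highest was in a control male at 2 d.

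The group means of the log2 level, in falling order, were 17.43 ± 0.54 in control females at 2 d (SD, n = 5), 17.19 ± 0.43 in control males at 4 d (n = 5), 17.03 ± 0.41 in control males at 2 d (n = 4), 17.02 ± 0.19 in kisspeptin females at 2 d (n = 5), 16.93 ± 0.40 in kisspeptin males at 4 d (n = 5) and 16.74 ± 0.50 in kisspeptin males at 2 d (n = 6). The largest gap between neighbours in this order was 0.23 and the highest mean was 0.69 above the lowest, with an SD of single fish within groups of 0.43, and the fish of all groups overlapped. Kisspeptin fish were lower on average than control fish by −0.40 in females at 2 d, −0.29 in males at 2 d and −0.27 in males at 4 d. The fit across all names gave log2 fold changes of −0.40 (SE 0.33), −0.37 (SE 0.34) and −0.15 (SE 0.30), given as a description with no test. The size of these differences, and in females also the sign, depended on the scaling. With library totals alone they were −0.16, −0.56 and −0.14. Relative to the 14 names whose main isomiR was counted in every library, a choice made after seeing the data, they were 0.01, −0.40 and −0.17. MiR-22a is itself among these 14 names and held 19.5% to 60.6% of their counts. This last scale therefore contains its own level and can compress differences in it, and the positive sign in females was found on this scale only.

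**Figure D2:**
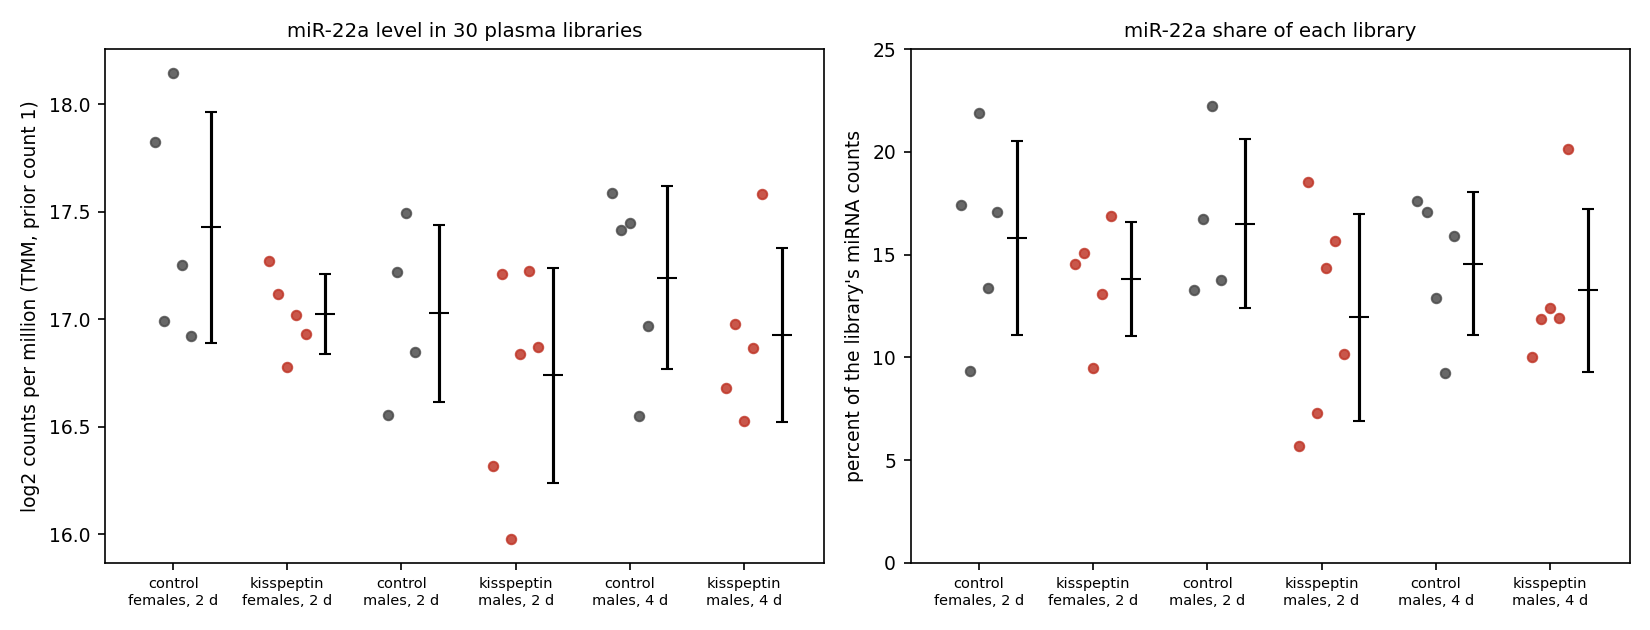
Level of miR-22a in 30 fish by group, as log2 cpm (left) and as percent of the library's miRNA counts (right), with control fish in grey, kisspeptin fish in red, and mean ± SD as black bars. Every group overlaps every other, and the share runs from 5.67% to 22.3%.

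Among the 172 names analysed here, only miR-21 had a higher mean level than miR-22a, at 17.24 on the log2 scale, while miR-16b (16.62) and miR-451 (16.60) came next below. These names hold none of the let-7 family, of which the paper reports let-7e-5p as its most highly expressed miRNA. They also hold no miR-100, which the paper lists as changed in females. The counts of each library nevertheless add up to the microRNA reads that the paper lists for that fish. Shares given here are therefore shares of that full number, and ranks are those within the 172 names. Why let-7 and miR-100 are absent was not tested, so neither ranks nor shares are claimed for all plasma miRNAs. MiR-21 is a widely expressed miRNA of many tissues, miR-16 is abundant in blood cells, and miR-451 is made by red blood cells. Single fish often departed from this order of the means. MiR-21 was above miR-22a in 23 of 30 fish, miR-16b in 5 and miR-451 in 12. Among these names miR-22a was the most abundant in 3 libraries and ranked 2 in 14, 3 in 8 and 4 or 5 in the other 5.

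The spread of miR-22a was among the smallest of the 29 names with at least 1 cpm in every library, that is, counted at least once in each. Its SD within groups, 0.43 on the log2 scale, ranked 3 after miR-16b (0.41) and miR-15a (0.41) and before miR-210-5p (0.43) and miR-146a (0.47). The median over the 28 other names was 0.84 and the highest value 3.08. MiR-16 and miR-15 are related by their seeds, and miR-146a is known as a regulator of immune signalling. The rank of miR-22a was taken on the TMM scale only, and its SD was larger with DESeq2 scaling, as given below. Since steadiness chose miR-22a, this rank is a description of these libraries and no evidence of its own.

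**Figure D3:**
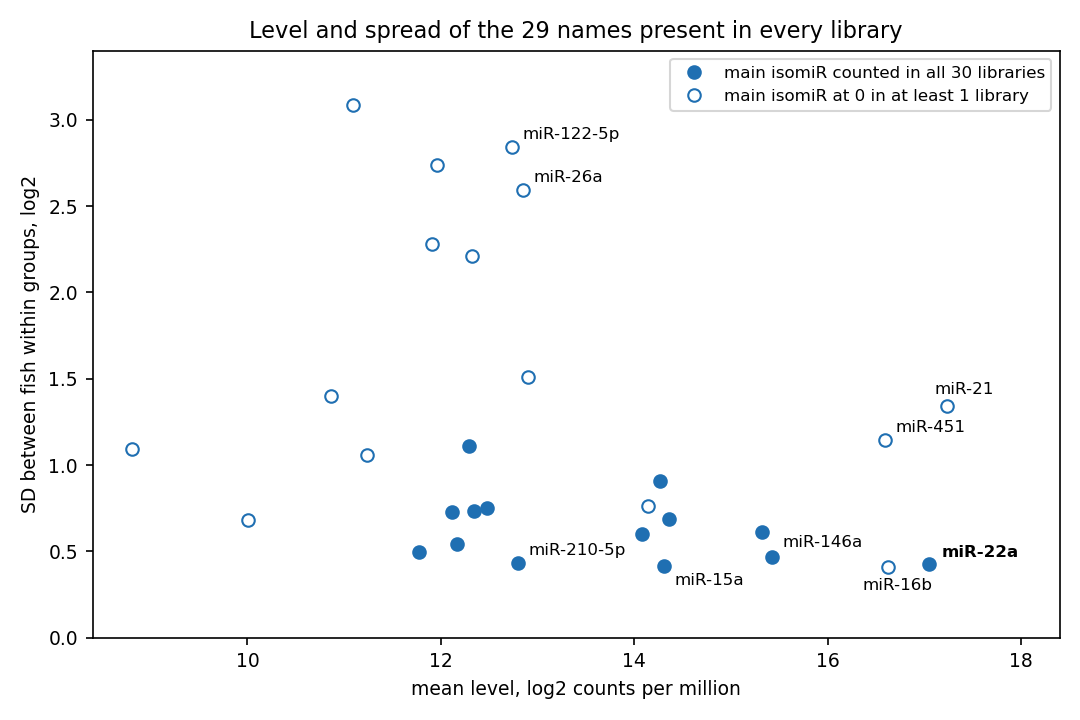
SD between fish within groups (vertical axis, log2) against the mean level (horizontal axis, log2 cpm) for 29 miRNA names, with filled points for the 14 names whose main isomiR was counted in all 30 libraries and open points for the 15 names whose main isomiR was at 0 in at least 1. MiR-22a lies at the lower right, with a mean of 17.05 and an SD of 0.43.

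The division of the counts among isomiRs was also steady. It was not itself used to choose miR-22a, but it is not independent of that choice. Names whose main isomiR was at 0 in some libraries also tended to have a larger spread of level, as given below. The main isomiR of miR-22a held between 71.0% and 82.0% of its counts in a library, with a mean of 77.7%. The SD was 2.92 percentage points over the 30 libraries, the smallest SD of the 29 names. The next were miR-146a (3.56) and miR-126a-3p (4.39), and the median of the other names was 14.3. That median includes names whose main isomiR was at 0 in some libraries, which had SDs from 13.0 (miR-16b) upward. Names with their main isomiR in every library had SDs of at most 12.0 (miR-2188). In 15 of the 29 names the main isomiR was at 0 in at least 1 library in which the name itself was counted. Among them were miR-451 (13 libraries), miR-16b (1 library) and miR-21, with its main isomiR at 0 in 6 libraries. In these 6 libraries miR-21 held 1.03% to 7.30% of the counts, against 14.3% to 30.1% in the others, and they were 6 of the 7 in which miR-21 fell below miR-22a. In the same 6 libraries the share of miR-22a ran from 7.30% to 17.1%. The 14 names whose main isomiR was counted in every library had SDs within groups of 0.41 to 1.11 (median 0.61), and miR-22a ranked 2 among them. The 15 other names had SDs of 0.41 to 3.08 (median 1.40). How these zeros arose, and their part in the spread of a name, was not tested, and the level, rank and spread of miR-21 given here include the 6 libraries. Those of miR-451 and miR-16b likewise include the libraries with such zeros.

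**Figure D4:**
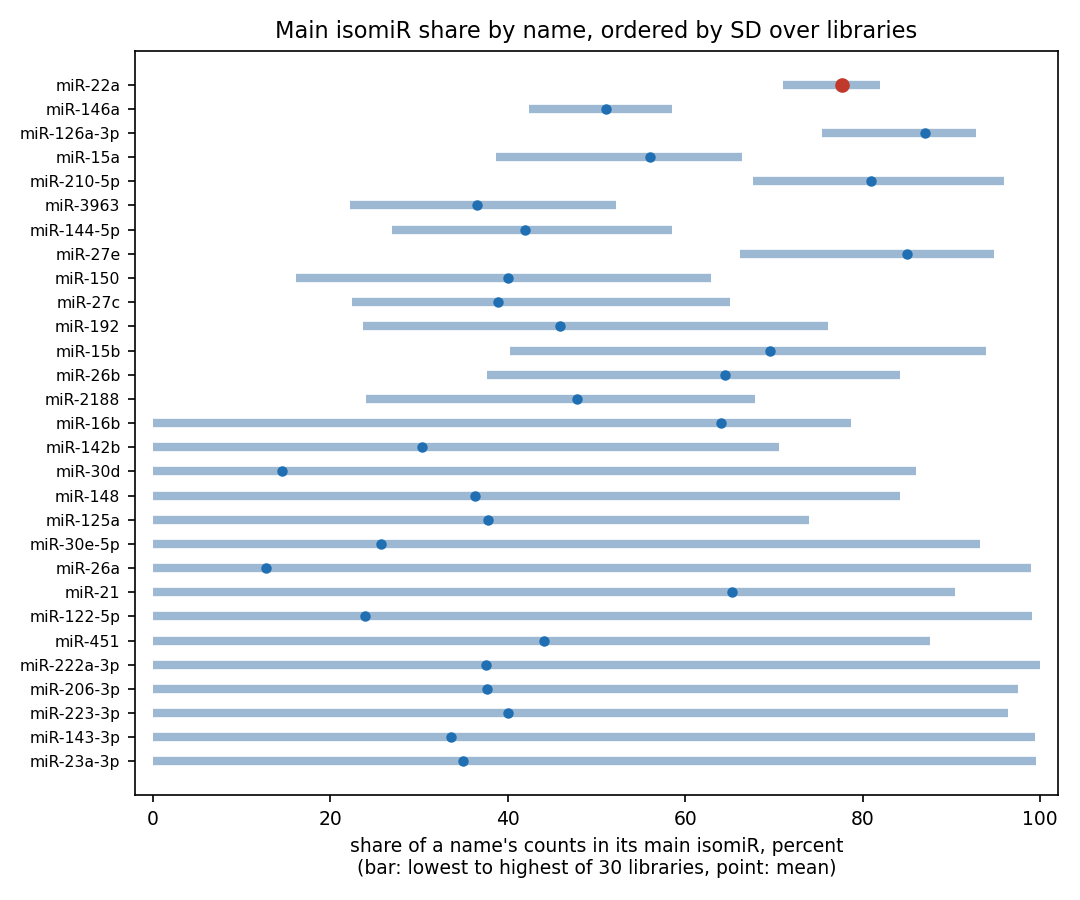
Share of a name's counts held by its main isomiR (horizontal axis, percent) for 29 miRNA names ordered by the SD over libraries, with bars from the lowest to the highest of 30 libraries and points at the mean. MiR-22a, in red, has the shortest bar, from 71.0% to 82.0%, and 15 bars reach down to 0.

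Zeros of this kind also occurred among the rarer forms of miR-22. Of 410 pairs of isomiR and library in which the overall share of the isomiR would give at least 10 counts, 19 held none. Of these, 10 were the 19 nt form of miR-22-3p, and the other 9 were isomiRs of miR-22a that each held at most 0.358% of the miR-22 counts.

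The make-up of miR-22 was compared between groups by 4 measures in each fish, namely the share of the main isomiR, the mean length, the share with another 5′ start and the share with a differing base. In control females at 2 d the main isomiR held 70.9%, 73.4%, 75.0%, 78.0% and 80.5% of the miR-22 counts, and in kisspeptin females 73.8%, 74.8%, 75.2%, 79.5% and 81.1%. In control males at 2 d it held 79.4%, 79.6%, 80.5% and 80.6%, and in kisspeptin males 74.6%, 76.6%, 77.9%, 78.4%, 80.7% and 81.2%. At 4 d it held 73.1%, 75.8%, 77.1%, 77.8% and 82.0% in control males, and 74.9%, 75.5%, 78.3%, 80.4% and 80.8% in kisspeptin males. Control males at 2 d were the tightest group for this share, and every pair of groups overlapped. The shallowest miR-22 count, 3244 in a kisspeptin male at 2 d, gave a main share of 76.6% with a 95% exact Clopper-Pearson interval of 75.1% to 78.1%, which covers counting error only. The largest counting SD of this share in any fish was 0.743 percentage points, against an SD within groups of 2.90.

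None of the 28 comparisons made (7 for each of 4 measures) reached an adjusted p under 0.05 by two-sided exact permutation tests over fish. The smallest unadjusted p was 0.0434, for the share of the main isomiR between the sexes at 2 d (adjusted p = 0.629). Males were higher than females by 2.92 percentage points, as the mean of the 2 treatments, with 80.1% ± 0.61 against 75.6% ± 3.77 in control fish and 78.2% ± 2.49 against 76.9% ± 3.22 in kisspeptin fish (SD). Kisspeptin minus control differences of this share were 1.29 percentage points in females at 2 d, −1.80 in males at 2 d and 0.82 in males at 4 d, with exact permutation p of 0.532, 0.214 and 0.659. Males at 4 d minus males at 2 d differed by −1.59 points (exact permutation p = 0.189). The treatment differences did not pass a test of their difference between the sexes (exact permutation p = 0.230) or between the days in males (exact permutation p = 0.255).

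The mean length of miR-22 counts lay between 21.64 and 21.78 nt in the 30 fish. The share with another 5′ start, and therefore another seed, lay between 2.68% and 9.43%, with both extremes in kisspeptin males at 2 d. Its group means ran from 6.28% ± 0.65 in control males at 2 d (SD, n = 4) to 7.26% ± 1.06 in control females at 2 d (n = 5), and kisspeptin minus control differences were −0.10, 0.27 and 0.55 percentage points in females at 2 d, males at 2 d and males at 4 d. The share with a differing base, which counts miR-22b and miR-22-3p, was at most 0.822%. Over the 30 fish the share of the main isomiR ran against that of the form 1 base shorter at the 3′ end (Pearson r = −0.88, Spearman rho = −0.84) and less closely against the share with another 5′ start (r = −0.54, rho = −0.65). These shares have the same denominator, so a negative relation is partly fixed by their construction.

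**Figure D5:**
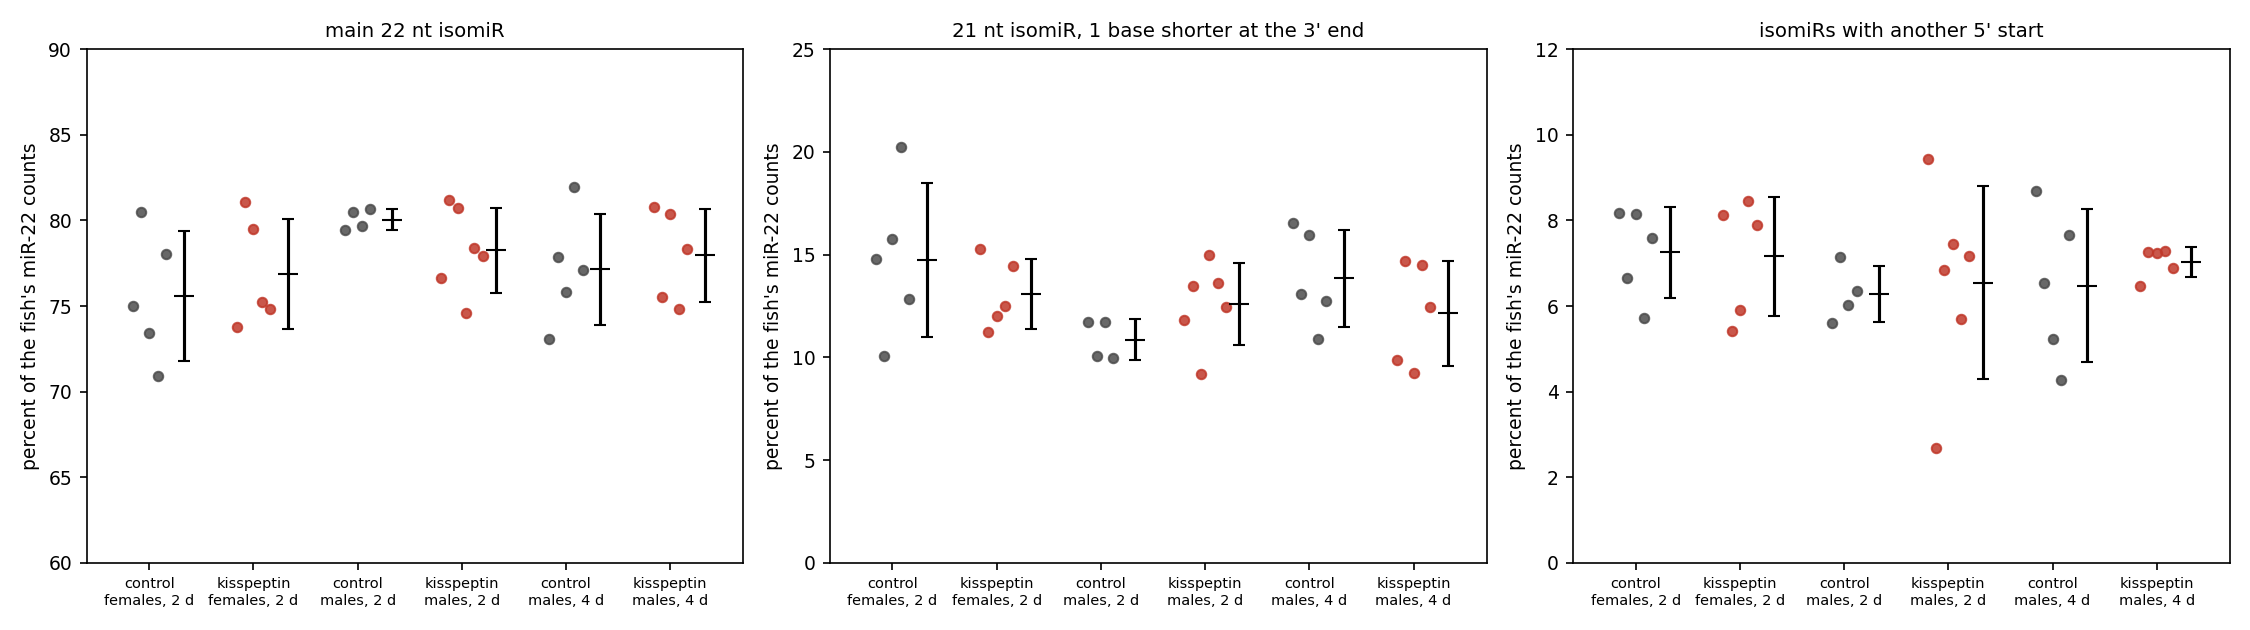
Share of each fish's miR-22 counts (vertical axes, percent, the first starting at 60) in the main 22 nt isomiR, in the 21 nt form 1 base shorter at the 3′ end, and in isomiRs with another 5′ start, by group, with control fish in grey, kisspeptin fish in red, and mean ± SD as black bars. Control males at 2 d, all between 79.4% and 80.6% for the main isomiR, are the tightest group for that share, and the groups overlap in every panel.

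The response of single miR-22 isomiRs to kisspeptin was tested with edgeR across all isomiRs of the count data. None of the miR-22 isomiRs other than the main one was called at an adjusted p under 0.05 in females at 2 d (0 of 24), males at 2 d (0 of 24) or males at 4 d (0 of 22). The background was 0.00% of all isomiRs tested in each of the 3 comparisons (684, 684 and 362 isomiRs). With limma-voom none of them was called either, beside 0, 0 and 1 of the 684, 684 and 362 isomiRs tested. With DESeq2 1 of them was called, in males at 2 d, beside 13, 11 and 2 of all isomiRs tested in the 3 comparisons. At an unadjusted p under 0.05 there were 2, 1 and 0 of them, against 17.1%, 10.4% and 4.14% of all isomiRs. With kisspeptin, 21 of 24 had lower fitted values in females at 2 d (55.7% of all isomiRs), 17 of 24 in males at 2 d (43.7%) and 13 of 22 in males at 4 d (49.4%). Their median log2 fold changes were −0.48, −0.48 and −0.05, beside −0.23, 0.16 and 0.04 over all isomiRs tested. Most of the isomiRs tested belong to miR-22a and share its level, so these counts are not independent of one another or of the level differences above. MiR-22a was chosen for a steady level in these same libraries, which made few calls among its isomiRs more likely beforehand. The low number of calls is therefore a description and no evidence that these isomiRs do not respond.

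In females at 2 d the smallest p was that of the 22 nt form of miR-22b shown above (edgeR adjusted p = 0.253). Its counts were 0, 2, 9, 12 and 13 in the 5 control females and 0 in all 5 kisspeptin females. With 3 counts set over the kisspeptin group, its summed counts per library total were 6.85-fold higher in control females. This value allows for counting error only and not for differences between fish, so it is no lower limit of a group difference. The other isomiR with an unadjusted p under 0.05 in females was an 18 nt form of miR-22a, 4 bases shorter at the 3′ end, with counts of 6 and 12 in 2 control females and 0 in the other 8 females (edgeR adjusted p = 0.253).

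In males at 2 d the smallest p was that of the form of miR-22a 3 bases shorter at the 3′ end (19 nt). Its counts were 9, 27, 28 and 36 in the 4 control males, and 1, 2, 4, 7, 14 and 36 in the 6 kisspeptin males, so that the groups overlapped. The log2 fold change was −1.98 (SE 0.83), with an edgeR adjusted p of 0.452, while DESeq2, which called 11 isomiRs of the whole table in this comparison, gave −2.03 with an adjusted p of 0.0453. Across settings its adjusted p lay between 0.0453 and 0.997. In males at 4 d the smallest p was that of the form 1 base longer at the 3′ end and with the 5′ start 1 base later (edgeR adjusted p = 0.989). Its counts were 0, 0, 0, 2 and 3 in control males and 0, 0, 2, 14 and 20 in kisspeptin males.

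MiR-22b and miR-22-3p made up less than 0.2% of the miR-22 counts together. MiR-22-3p had 339 counts in 19 of the 30 libraries and miR-22b had 155 counts in 13. In edgeR tests across all names, none of the 2 was called in any of the 3 comparisons, with a background of 0.00% of the 123, 123 and 107 names tested. The one unadjusted p under 0.05 was that of miR-22b in females at 2 d (against 8.94%, 8.13% and 1.87% of all names in the 3 comparisons), with an edgeR adjusted p of 0.416. Its counts were 0, 4, 9, 13 and 25 in the 5 control females and 0, 0, 0, 0 and 1 in the 5 kisspeptin females, so 4 of the 5 control fish were above all kisspeptin fish. Per library total the control females were 29.1-fold higher, with an exact 95% interval of 5.00 to 1173 that covers counting error only. In the shallowest library of a kisspeptin female a count of 0 still allows up to 118 cpm (3 counts of its total).

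In males miR-22b had counts of 0, 0, 4 and 6 in control males and 0, 0, 0, 0, 2 and 6 in kisspeptin males at 2 d (log2 fold change −1.17, SE 1.53), and 0, 0, 0, 0 and 20 in control males and 0, 0, 6, 10 and 49 in kisspeptin males at 4 d (log2 fold change 1.40, SE 1.85). The groups overlapped at both days. MiR-22-3p had at most 78 counts, in a control female, and was counted in 2 to 4 fish of each group, with log2 fold changes of 1.17 (SE 1.85) in females at 2 d, −1.79 (SE 1.86) in males at 2 d and 2.17 (SE 1.80) in males at 4 d. These values rested on single fish. The fold change in females was 3.51 without the control female with 78 counts (edgeR adjusted p = 0.593), and that in males at 2 d was −6.27 without the kisspeptin male that held 32 of its group's 33 counts (edgeR adjusted p = 0.295). In males at 4 d, leaving out 1 fish gave values from −0.22 to 4.21.

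The names whose level was most like that of miR-22a over the 30 fish were miR-21 (Pearson r = 0.52), miR-125a (0.47), miR-192 (0.34), miR-148 (0.27) and miR-222a-3p (0.26), of 28 names compared with a median r of −0.05. All points share the library totals and scaling factors. Without the 2 fish farthest from the median of miR-22a, r was 0.35 for miR-21 and 0.40 for miR-125a. Of the 5 names 4 were also among the 5 highest by Spearman rho and 3 among those without scaling factors. MiR-21 was not among these 3. Without scaling factors its r was 0.23, and −0.04 when the 2 farthest fish were also left out, while miR-125a had 0.49 and 0.31. The level of miR-21 includes the 6 libraries in which its main isomiR was at 0. The same limit applies to miR-125a (10 libraries), miR-148 (9) and miR-222a-3p (15), but not to miR-192 (0).

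Markers of blood cells and tissues were counted in every library. MiR-486 (erythrocyte) and miR-499 (muscle) were also looked for but were not among the names. The paper reports that hemolysis was not visible in the plasma. The erythrocyte list (miR-451, miR-144 and miR-16, 6 names) held 14.2% to 47.5% of the counts of a library, with the highest median, 32.5%, in kisspeptin males at 2 d and the lowest, 20.3%, in control males at 2 d. The share of miR-22a ran against it over the 30 fish (Pearson r = −0.60, Spearman rho = −0.54), and both are shares of the same total. This r and those of the lists below were taken between log2 shares without TMM factors. On the TMM-scaled log2 level, the r of miR-22a was −0.20 with miR-451, −0.22 with miR-16b and −0.42 with miR-144-5p. The main isomiR was at 0 in 13 libraries for miR-451, in 1 for miR-16b and in 0 for miR-144-5p. The muscle list (miR-1, miR-133 and miR-206) held 0.157% to 15.3%, again with its highest median, 10.8%, in kisspeptin males at 2 d (r = −0.14 with the share of miR-22a), the liver list (miR-122) 0.0076% to 20.4% (r = 0.10), and the list of platelet, endothelial and myeloid names (miR-126 and miR-223) 1.95% to 13.9% (r = 0.09). The part of these cell types in the level of miR-22a was not tested.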

How the data were processed

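Small RNA of plasma was sequenced in 2 runs of 15 libraries (NEXTflex Small RNA-Seq v3), and the run of each library is not given in the sources used here. The authors trimmed the reads with Cutadapt (2.8 in the methods, 2.1 in the submitters' processing notes, which also name Bowtie2 2.4.1 and HTSeq 0.6.0), removed 4 random bases at each end, mapped them to miRBase 21 hairpins with bowtie2 and deposited raw counts per isomiR. Molecular identifiers were not used as far as the sources say. Names were counted by summing isomiRs.

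The level is log2 cpm with TMM factors and a prior count of 1. Kisspeptin was compared with control by edgeR 4.0.16 quasi-likelihood tests across all names or isomiRs that reached 1 cpm in 4 or more libraries (Benjamini-Hochberg, threshold 0.05), with the 20 fish of 2 d in one fit and the 10 males of 4 d in another. No library held more than 191846 counts, so a single count was already above 1 cpm. The filter therefore kept everything counted in 4 or more libraries, also at very low counts. Alternatives were limma-voom (limma 3.58.1, the test of the study), DESeq2 1.42.0, other filters and scalings, and leaving out each fish. Make-up was tested per fish with two-sided exact permutation tests. The edgeR and permutation scripts were tested on simulated data. Genes named are all names of number 22, their isomiRs with at least 1% of the counts, in all 30 libraries or of smallest p, the neighbours in level, the 5 most alike and 5 steadiest names, and the marker lists. The members, lists and tests were chosen with earlier results of these data known. Fish are separate animals.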

Additional observations from a re-analysis of the deposited data

Results flagged for a closer look

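Of 36 sets of values examined (6 measures of miR-22 in each of 6 groups), 2 had a fish far from the rest of its group by Dixon's criterion, where chance would give about 1 in 20 sets. In kisspeptin males at 4 d, the highest share of the library in miR-22a was 20.1%, with the other 4 fish between 9.99% and 12.4%. In kisspeptin males at 2 d, the highest share of miR-22 counts with a differing base was 0.453%, with the other 5 fish between 0 and 0.130%. On the TMM-scaled log2 level the first fish was again the highest of its group, at 17.58 with the other 4 between 16.53 and 16.98, but was not flagged.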

How the results depend on the processing

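No paired analysis was possible because the labels give no numbers that pair fish across groups. With DESeq2, 1 of 24 miR-22 isomiRs was called in males at 2 d in place of 0, beside 11 of all 684 isomiRs tested. The SD of the miR-22a level within groups was 0.53 with DESeq2 scaling, in place of 0.43. Of the 5 names most like miR-22a, 3 were kept with no scaling factors. The differences in level became 0.0143 in females, −0.40 in males at 2 d and −0.17 in males at 4 d relative to names whose main isomiR was counted in every library, a choice made after seeing the data. These names include miR-22a itself, which can compress differences in its level. On a log2 scale of the share over the rest, kisspeptin minus control reversed to −0.0259 for another 5′ start in males at 2 d and to −0.92 for a differing base in females at 2 d, and the sex difference in the latter to 0.23. No difference that reversed was past the threshold.

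Leaving out 1 fish at a time, the treatment differences in males at 4 d ran from −0.20 to 2.02 percentage points for the main isomiR and from −0.00536 to 0.0288 nt for mean length. For another 5′ start they ran from −0.49 to 0.34 points in females, from −0.31 to 1.04 in males at 2 d, from −0.0433 to 0.63 between days, from −0.21 to 1.14 for the difference between sexes in the treatment effect, and from −0.49 to 0.86 for that between days. For a differing base they ran from −0.0035 to 0.18 in females, from −0.0568 to 0.0369 between sexes and from −0.0773 to 0.0263 between days. The log2 fold change of miR-22-3p ran from 0.37 to 3.51 in females, from −6.27 to −1.05 in males at 2 d and from −0.22 to 4.21 in males at 4 d. No miR-22 name or isomiR was called when 1 fish was left out. The cause of these changes was not tested. The filter of 1 cpm in all samples left neither miR-22b nor miR-22-3p, the median length was 22 nt in every fish, and counts of miR-22a alone held no differing base, so these gave no test. Counts under about 10 per library limit what can be seen for the rare names.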
